A study of Mus musculus with 6 samples.

Results

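The genes described here are the constitutive proteasome subunit genes, measured in sorted nuclei of Foxp2-positive neurons from the medial prefrontal cortex (mPFC) of mice. They were taken by name from the deposited count table, as the rows whose symbol is Psma, Psmb, Psmc, Psmd, Psme, Psmf or Psmg followed by a number. The immunoproteasome subunits Psmb8, Psmb9 and Psmb10 were left out by that rule and are used below for comparison. The rule gave 45 of 24421 genes, and 43 of them were among the 13560 genes that passed the filter on low counts. The rule reads symbols and no measured value, but the genes were chosen with earlier results of these data known.

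Nuclei were compared between mice given CFA, an emulsion (complete Freund's adjuvant) whose injection inflames tissue and causes lasting pain, and mice given saline, with 3 libraries per group. Both groups were Foxp2-Cre mice that received a bilateral injection of an adeno-associated virus for GFP with a KASH domain, a tag of the nuclear envelope. Tissue was taken 4 weeks after that injection. Which cells carried the tag thus depended on Foxp2-driven Cre and on the reach of the virus. The sources used here give no age, no sex and no interval between CFA and collection. Nor do they tie each library to its own animal, so p-values reflect how far these libraries differ, and part of that may be technical. The series title places the study in the question of how an mPFC-to-thalamus circuit takes part in lasting pain.

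Total counts per library were 10663201 to 11850741 in the CFA group and 9673038 to 11117681 in the saline group. Saline replicate 3 stood apart from the other 5 libraries. Its level of nuclear long non-coding RNAs (Malat1, Meg3 and 5 others) was a mean log2 CPM of 9.38, against 7.95 to 8.47 elsewhere, and its level of 16 cytoplasm-rich neuronal transcripts was 8.95, against 9.26 to 9.53. Counts of calls, directions and non-overlap over the proteasome genes are given with and without it, and counts of intervals only with all libraries. Markers of excitatory neurons had summed levels of 2429 to 3183 CPM in CFA and 2446 to 2813 CPM in saline libraries, against 108 to 177 and 108 to 168 CPM for markers of inhibitory neurons. Foxp2 itself was at 34.9, 24.0 and 28.5 CPM in CFA and 28.3, 29.3 and 43.7 CPM in saline libraries. Markers of corticothalamic neurons summed to 606 to 691 CPM in CFA and 616 to 798 CPM in saline libraries. Markers of striatal projection neurons summed to 191 to 335 and 274 to 699 CPM, with the 699 CPM in saline replicate 1. Log2 fold changes were negative for all 5 tested striatal markers and for 5 of 6 corticothalamic markers. They were positive for all 6 inhibitory and all 4 excitatory markers, where 49.8% of all tested genes were positive. CPM are counts scaled by the effective size of each library.

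The proteasome is the main protease of the cytosol and nucleus for proteins tagged with ubiquitin. Its barrel-shaped 20S core is a stack of alpha and beta rings, with the proteolytic sites inside on the beta subunits. The 19S cap binds ubiquitin chains, removes them, and unfolds the substrate with a ring of ATPases before feeding it into the core. Dedicated chaperones assemble both particles, and alternative activators, among them PA28 and PA200, can take the place of the cap. In neurons the proteasome also takes part in protein turnover at synapses. Interferon induces 3 replacement catalytic subunits, encoded by Psmb8, Psmb9 and Psmb10, and the PA28 alpha and beta subunits, encoded by Psme1 and Psme2.

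The 45 genes lie on 16 chromosomes, with at most 8 on one of them, chromosome 11. Their exon lengths are short: the 43 tested genes have a median of 1420 bases, against 2982 bases for all tested genes, and 39 of the 43 fall below that value. A few lie close to each other. Psme1 and Psme2 are separated by 5912 bases on chromosome 14, and Psmb5 and Psmb11 by 7314 bases on the same chromosome.

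Transcription of proteasome genes is known to be controlled in part by Nfe2l1 (NRF1), a factor that binds antioxidant response elements. Promoter sequences from RefSeq (GRCm38.p6, the same assembly as mm10) were found for 37 of the 45 genes. The core of this element, TGACNNNGC with N for any base, was searched on both strands in the 250 bases before the start site. It was present for 5 of the 37 genes (13.5%), against 10.2% of 32851 promoters in the table, so the share was near that of promoters in general. For this and the other motifs below, a gene counts once if any of its promoter entries matches. The general share is per entry, so the units differ. The 5 stretches are shown because they hold the only matches, on the strand of the gene, 5′ to 3′, with the match in capitals (for Psmc6 and Psmd12 it reads on the opposite strand). Their positions are chr14:54618008-54618068 (minus strand) for Psmb5, chr11:70525322-70525356 for Psmb6, chr5:123228133-123228189 for Psmd9, chr14:45329574-45329631 for Psmc6 and chr11:107479278-107479315 for Psmd12, the last 4 on the plus strand.
Psmb5: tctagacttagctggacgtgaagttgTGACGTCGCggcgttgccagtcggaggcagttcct
Psmb6: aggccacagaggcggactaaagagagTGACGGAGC
Psmd9: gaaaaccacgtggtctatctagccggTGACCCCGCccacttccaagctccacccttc
Psmc6: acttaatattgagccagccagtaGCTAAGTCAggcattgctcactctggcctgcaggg
Psmd12: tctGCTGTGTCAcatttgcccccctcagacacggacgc
The match ends 1 base before the start site for Psmb6, 23 bases for Psmd9 and 39 bases for Psmb5, and 219 and 239 bases before it for Psmc6 and Psmd12. A CCAAT box (CCAAT, both strands) was found for 13 of 37 genes (35.1%), against 33.8% of all promoters, and TATAAA on either strand for 3 of 37 (8.11%), against 12.4%. The core of the interferon-stimulated response element was found on either strand for 3 of 37 genes (8.11%; Psmb3, Psmd4 and Psmd9), against 2.98% of all promoters. The median GC content of these upstream stretches was 57.6%, against 52.4% for all promoters. A match in letters is a description and not a measured binding site.

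Proteasome genes were abundant in these nuclei. Per length, the median over the tested members was 258 TPM (a length-scaled share of the library, here from the deposited counts and exon lengths), against 26.2 TPM over all tested genes, and 94.3% of tested genes lay below the members' median. Together the 45 genes took 0.517% to 0.584% of all counts in CFA and 0.455% to 0.641% in saline libraries. Within a class the levels were within a few-fold of each other. In the 7 detected alpha subunits they ran from 214 TPM (Psma4) to 471 TPM (Psma3), in the catalytic beta subunits from 222 TPM (Psmb7) to 375 TPM (Psmb6), and in the 6 ATPases from 163 TPM (Psmc6) to 540 TPM (Psmc5). The lid subunits, which include the deubiquitinase Psmd14, ran from 151 TPM (Psmd11) to 320 TPM (Psmd6). These levels are means over all 6 libraries.

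Genes outside the core and cap were lower per length. The chaperones of cap assembly were at 39.7 TPM (Psmd10), 43.7 TPM (Psmd9) and 105 TPM (Psmd5), and the chaperones of core assembly Psmg1 to Psmg4 at 36.5 to 84.5 TPM. Psmf1, which encodes the inhibitor PI31, was at 40.5 TPM. Among the activators, Psme3 (PA28 gamma, the nuclear form) was at 121 TPM and Psme4 (PA200) at 24.1 TPM, the lowest of all tested members. Psmc5, an ATPase of the 19S base, was the highest of all.

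**Figure D1:**
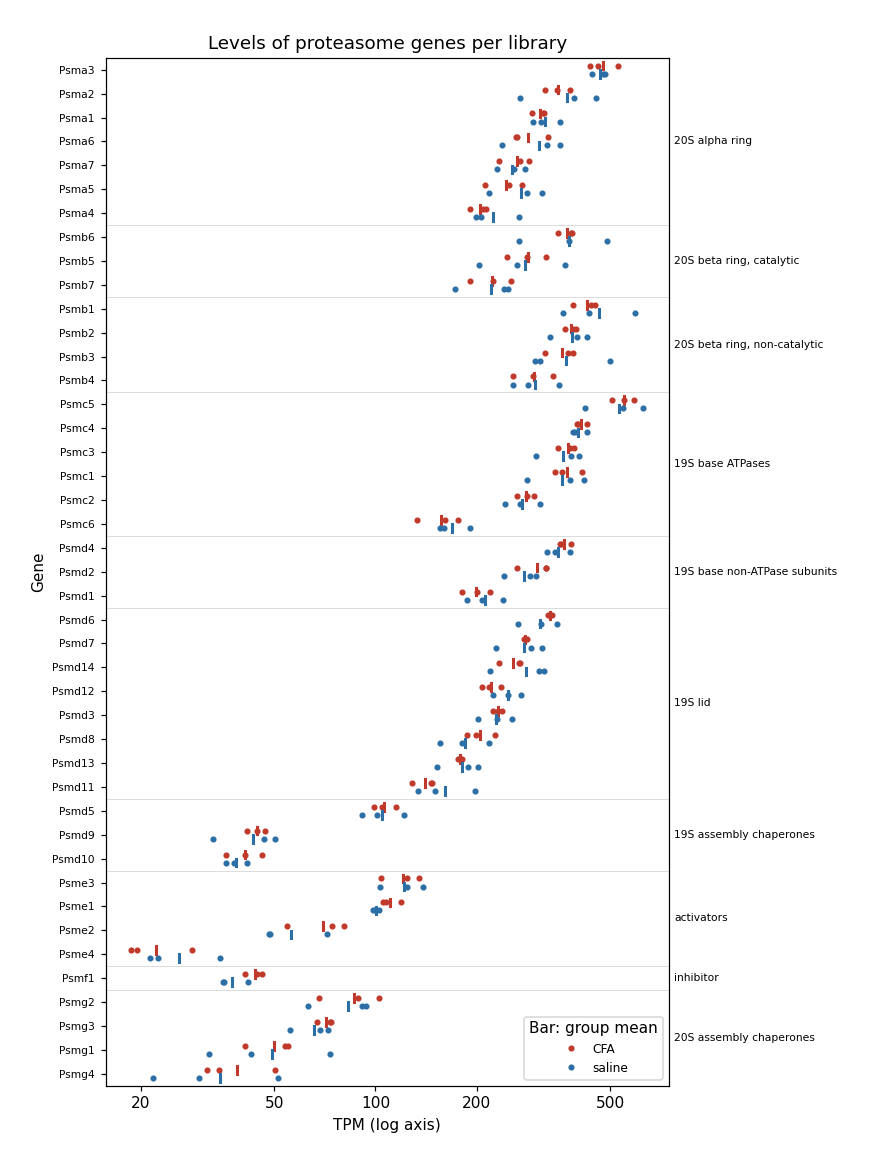
TPM on a log axis for the 43 tested proteasome genes, grouped by class and ordered by level, with 1 point per library and a bar for the mean of each group (3 libraries). Means over all libraries lie between 151 and 540 TPM for core and cap subunits. They lie between 24.1 and 121 TPM for assembly chaperones, activators and the inhibitor. Single points and group means reach beyond these ranges.

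Both members that failed the filter are forms of other tissues. Psma8, the alpha subunit of the testis, had 0, 0 and 0 counts in CFA and 0, 0 and 10 counts in saline libraries. Psmb11, the catalytic beta subunit of the thymus, had 0, 0 and 4 counts in CFA and 2, 0 and 0 counts in saline libraries. A count of 0 allows up to 3 counts, or 0.250 to 0.304 CPM, for counting error alone.

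The comparison of CFA with saline asked whether these genes differ in prefrontal Foxp2 neurons of mice with CFA. None passed the test. In the quasi-likelihood test of edgeR, adjusted by Benjamini-Hochberg over all 13560 genes, 0 of 43 tested members were called at the 0.05 level, as were 0% of all genes. At an unadjusted p under 0.05 there were also 0 members, where 3.22% of all genes passed. DESeq2, limma-voom and edgeR's likelihood ratio test called 0 members as well, where they called 0.0369%, 0% and 0.0811% of all genes. The smallest unadjusted p was 0.256 (Psmf1). In bulk libraries, fewer cells of a type and less RNA per cell cannot be told apart.

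Fold changes were small in both directions. A log2 fold change is CFA minus saline throughout. It was positive for 25 and negative for 18 of the 43 members, a share of 58.1% positive against 49.8% of all tested genes. The median was 0.019 over the members and -0.0011 over all tested genes, and the members ran from -0.21 (Psme4) to 0.32 (Psme2). The median size of the change, without its sign, was 0.063 in the members and 0.15 in all tested genes, with median standard errors of 0.19 and 0.25.

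The 95% intervals set how large a difference these libraries could have missed. For 32 of 43 members (74.4%) the interval lay within a 1.5-fold change either way (0.58 on the log2 scale), against 33.7% of all tested genes. The members were also more abundant, with a median of 122 CPM against 31.4 CPM over all tested genes. The part of abundance in the narrower intervals was not tested. For 42 of 43 it lay between -1 and 1. The exception was Psmg4, a chaperone of core assembly with only 52 to 129 counts per library, with an interval from -0.73 to 1.06. An absent call is therefore no evidence of equal levels below these bounds.

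**Figure D2:**
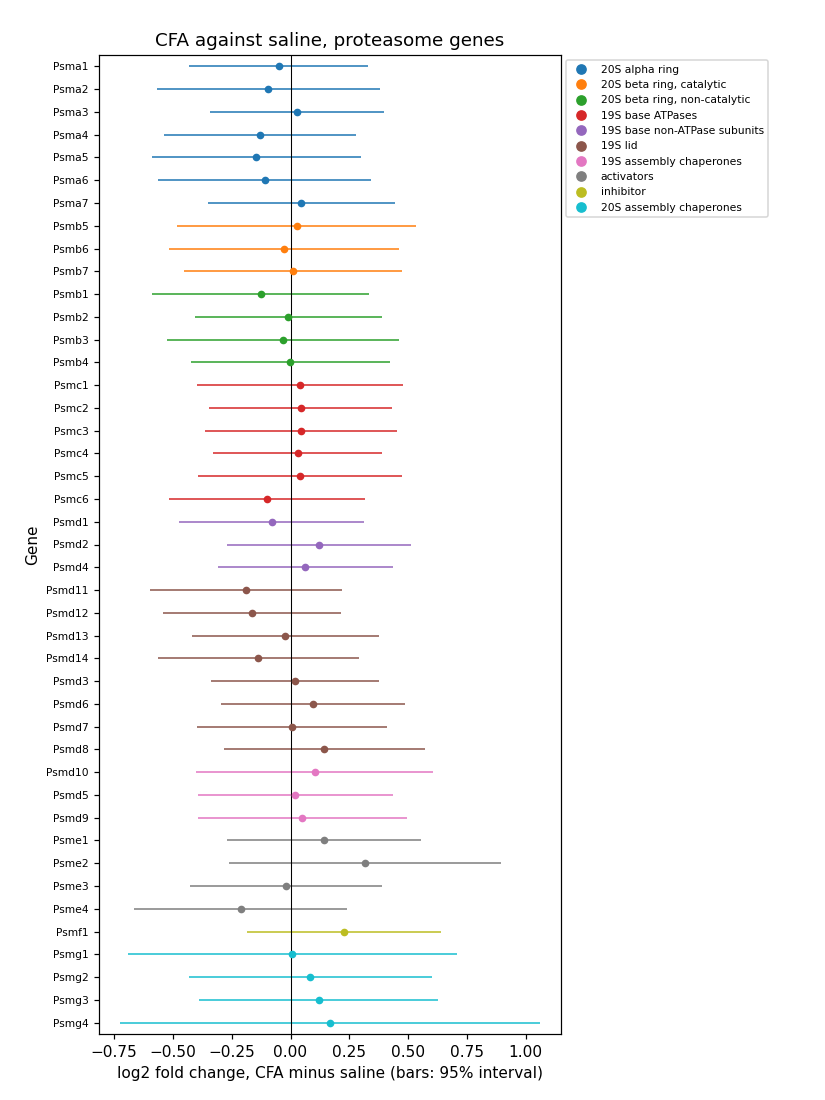
Log2 fold change (CFA minus saline) with its 95% interval for each of the 43 tested proteasome genes, coloured by class, from edgeR's quasi-likelihood fit. All intervals include 0, and the estimates run from -0.21 for Psme4 to 0.32 for Psme2.

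Alpha ring subunits form the gate and outer rings of the core. Of the 7 tested, 2 were positive and 5 negative in log2 fold change; the median was -0.095, the lowest -0.15 and the highest 0.046. Psma5 (chromosome 3, 108256926 to 108279952, mm10) was at 94.7, 121 and 133 CPM in CFA and 154, 137 and 94.2 CPM in saline libraries. The groups overlapped, with the highest and the lowest value both in saline. Its log2 fold change was -0.15 ± 0.21 (SE). Psma4 was at 77.0, 92.5 and 91.7 CPM in CFA and 91.4, 117 and 77.6 CPM in saline libraries, and its log2 fold change was -0.13 ± 0.19.

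The catalytic beta subunits carry the proteolytic sites. Psmb5, with the chymotrypsin-like site (chromosome 14, 54614120 to 54617995), was at 78.8, 98 and 113 CPM in CFA and 129, 91.6 and 63.0 CPM in saline libraries. The saline libraries enclosed all 3 CFA values. Psmb6, with the caspase-like site (chromosome 11, 70525357 to 70527858), was at 133, 158 and 159 CPM in CFA and 205, 156 and 98.4 CPM in saline libraries. Psmb7, with the trypsin-like site (chromosome 2, 38588046 to 38643906), was at 68.2, 85.8 and 98.1 CPM in CFA and 97.5, 93.5 and 59.3 CPM in saline libraries. In all 3 genes saline replicate 3 was the lowest library. Their log2 fold changes were 0.026 ± 0.24, -0.029 ± 0.23 and 0.0099 ± 0.22 (SE).

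The 4 beta subunits without a proteolytic site all had a negative log2 fold change, from -0.13 to -0.0013, with a median of -0.021. Psmb1 (chromosome 17, 15475721 to 15498276) was at 148, 185 and 182 CPM in CFA and 250, 179 and 133 CPM in saline libraries. Psmb3 was at 85.7, 108 and 114 CPM in CFA and 148, 89.9 and 77.2 CPM in saline libraries. Both ranged more widely in saline than in CFA, with saline replicate 1 at the top. Their log2 fold changes were -0.13 ± 0.22 and -0.033 ± 0.23 (SE).

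The 6 ATPases of the 19S base unfold substrates. Of these, 5 had a positive log2 fold change of 0.030 to 0.045, and Psmc6 was at -0.10 ± 0.19 (SE). Psmc6 had 76.1, 109 and 101 CPM in CFA and 102, 119 and 86.5 CPM in saline libraries. Psmc5, the most abundant member per length (chromosome 11, 106256185 to 106263112), was at 238, 278 and 301 CPM in CFA and 325, 279 and 191 CPM in saline libraries. Psmc2 was at 172, 210 and 202 CPM in CFA and 194, 219 and 153 CPM in saline libraries. Psmc5 and Psmc2 had log2 fold changes of 0.041 ± 0.20 and 0.044 ± 0.18 (SE). Without saline replicate 3 all 6 ATPases were negative, from -0.21 to -0.052. The groups overlapped for all 6 ATPases.

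The other subunits of the base and the lid behaved alike in size of change. Psmd2, a scaffold of the base, was at 360, 319 and 393 CPM in CFA and 358, 367 and 261 CPM in saline libraries, and its log2 fold change was 0.12 ± 0.18 (SE). Psmd1, the other large scaffold, was at 239, 233 and 285 CPM in CFA and 274, 311 and 216 CPM in saline libraries, at -0.080 ± 0.18. Of the 8 lid subunits 4 were positive and 4 negative, with a median of -0.0081. The lowest was Psmd11 (chromosome 11, 80428615 to 80472133), at 94.2, 89.0 and 102 CPM in CFA and 94.4, 138 and 93.1 CPM in saline libraries. Only saline replicate 2 stood above the rest in Psmd11, whose log2 fold change was -0.19 ± 0.19. Psmd12 was at 138, 142 and 163 CPM in CFA and 174, 186 and 137 CPM in saline libraries, and its log2 fold change was -0.16 ± 0.18.

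The 7 assembly factors had positive log2 fold changes with all libraries, and 4 did without saline replicate 3, where Psmg1 was at -0.26, Psmd5 at -0.12 and Psmg3 at -0.030. With all libraries the 3 chaperones of the 19S base were at 0.020 to 0.10 and the 4 chaperones of the 20S core at 0.0076 to 0.17. Psmd10 (gankyrin) was at 19.2, 26.5 and 23.9 CPM in CFA and 21.2, 24.1 and 19.6 CPM in saline libraries. Psmd9 was at 42.3, 48.3 and 43.0 CPM in CFA and 49.0, 33.8 and 46.1 CPM in saline libraries. Psmg3 was at 22.7, 24.4 and 22.6 CPM in CFA and 24.6, 22.9 and 16.6 CPM in saline libraries. Psmg4, the least counted, was at 6.41, 11 and 7.59 CPM in CFA and 11.5, 4.82 and 5.88 CPM in saline libraries. The groups overlapped for all 7 of these genes.

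Activators and the inhibitor held both ends of the range. Psmf1 (chromosome 2, 151716062 to 151741310) was at 58.0, 57.8 and 65.4 CPM in CFA and 60.0, 50 and 44.6 CPM in saline libraries. Only saline replicate 1 reached the CFA values, and the log2 fold change was 0.23 ± 0.19 (SE). Psme4 (chromosome 11, 30771775 to 30880361) was at 67.3, 47.9 and 50.3 CPM in CFA and 58.6, 54.7 and 78.5 CPM in saline libraries, and its log2 fold change was -0.21 ± 0.21. Among the 43 tested members it was the only one with its highest value in saline replicate 3, and it has the longest exon model of the members, 6442 bases.

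Psme1 and Psme2 encode the alpha and beta subunits of PA28, which interferon induces. Psme1 (chromosome 14, 55578494 to 55581527) was at 42.6, 40.8 and 42.0 CPM in CFA and 40.6, 38.3 and 34.7 CPM in saline libraries. All CFA libraries lay above all saline libraries, by a narrow margin between CFA replicate 2 and saline replicate 1. It was the 1 member of 43 without overlap (2.33%), where 7.51% of all tested genes had none, 3.55% higher and 3.97% lower in CFA. Its log2 fold change was 0.14 ± 0.19 (SE, unadjusted p = 0.472 in edgeR's quasi-likelihood test), and under RLE scaling the groups overlapped. Part of its exon sequence is shared with Emc9 on the opposite strand, and the kits do not mark strand, so reads of both cannot be told apart there.

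Psme2 (chromosome 14, 55587440 to 55591101) was at 19.6, 31.3 and 29.0 CPM in CFA and 28.4, 18.9 and 16.7 CPM in saline libraries. The groups overlapped, since CFA replicate 1 was low and saline replicate 1 high. Its log2 fold change was 0.32 ± 0.27 (SE), with a 95% interval from -0.26 to 0.90. A near copy, Psme2b, had 1, 1 and 0 counts in CFA and 0, 0 and 0 in saline libraries, and how reads shared by both were counted is not given in the sources used here.

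The excluded immunoproteasome subunits were mostly low. Psmb8 (chromosome 17, 34198195 to 34201454) had 20, 34 and 37 counts in CFA and 12, 0 and 18 counts in saline libraries, or 1.66, 3.00 and 3.56 CPM and 1.07, 0 and 1.82 CPM. CFA replicate 1 lay below saline replicate 3, and the log2 fold change was 1.5 ± 0.95 (SE, unadjusted p = 0.136 in edgeR's quasi-likelihood test). Psmb9 had 20, 6 and 3 counts in CFA and 9, 8 and 4 counts in saline libraries and did not pass the filter. Psmb10 was far higher, at 39.5, 39.9 and 49.2 CPM in CFA and 52.4, 38.4 and 32.8 CPM in saline libraries, and its log2 fold change was 0.055 ± 0.22. Per length, the constitutive catalytic subunits were at 222 to 375 TPM, Psmb10 at 85.2 TPM, Psmb8 at 3.92 TPM and Psmb9 at 2.39 TPM.

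Other interferon-induced genes are set beside these as values. Of 12 such genes, a list drawn up with earlier results of these libraries known, all 12 had a positive log2 fold change and 0 were called, while 10 had an unadjusted p under 0.05. Over all tested genes 49.8% were positive and 3.22% had such a p. Of the 12, 7 were higher and 0 lower in CFA without overlap, against 3.55% and 3.97% of all tested genes. Oasl2 and Tap2 are named because they had the smallest unadjusted p of the 12. Oasl2, an antiviral protein, was at 5.91, 15.2 and 26 CPM in CFA and 2.06, 0 and 2.13 CPM in saline libraries. Tap2, a peptide transporter subunit, was at 10.6, 11.4 and 16.6 CPM in CFA and 4.03, 4.73 and 5.47 CPM in saline libraries. The same shares apply to the marker lists that follow. Markers of microglia were positive for 7 of 8 (none at 0 counts throughout), with 0 without overlap. Their summed levels were 89.2 to 138 CPM in CFA and 69.8 to 104 CPM in saline libraries. Markers of astrocytes were positive for 4 of 7, with a median log2 fold change of 0.48, 3 without overlap (all higher) and summed levels of 459 to 649 CPM in CFA and 465 to 527 CPM in saline libraries. Markers of oligodendrocyte precursors were positive for 3 of 4 tested, with a median of 1.02, 2 higher and 1 lower without overlap, and summed levels of 26 to 38.8 CPM in CFA and 16 to 22.9 CPM in saline libraries. The part of these lists in the values of Psme1, Psme2 and Psmb8 was not tested.

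**Figure D3:**
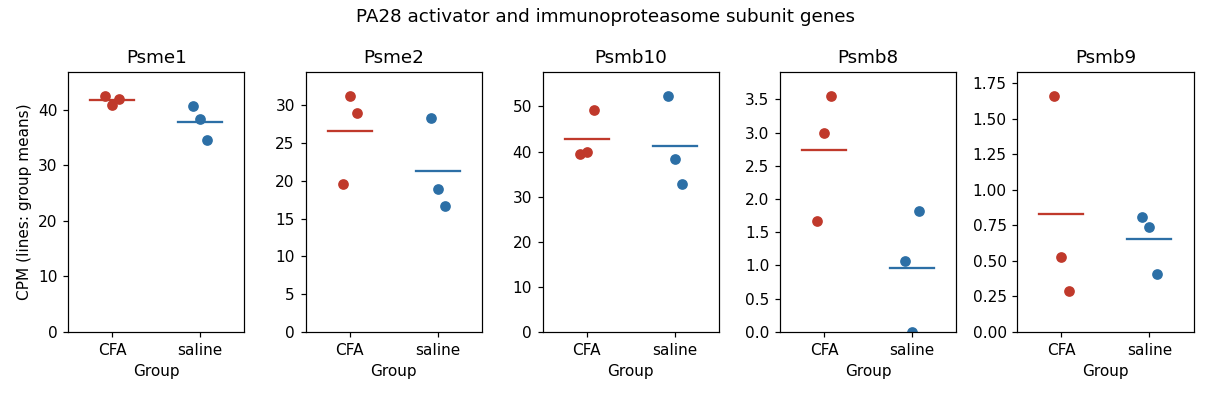
CPM of Psme1, Psme2, Psmb10, Psmb8 and Psmb9 in each CFA and saline library (points), with lines for group means, each panel on its own axis from 0. Psme1 alone of the 5 has no overlap between groups, with 40.8 to 42.6 CPM in CFA and 34.7 to 40.6 CPM in saline libraries.

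Differences between libraries of one group were larger than the difference between groups. The mean log2 CPM of the tested members was 6.51, 6.72 and 6.76 in CFA and 6.87, 6.71 and 6.34 in saline libraries, or 6.67 ± 0.13 and 6.64 ± 0.27 (SD, n = 3 each). Saline replicate 3 was the lowest library for 34 of 43 members (79.1%), where it was lowest for 23.7% of all tested genes. Saline replicate 1 was the highest for 20 of 43 (46.5%), against 19% of all tested genes. Set against the mean of the other 5 libraries, the median member was at 0.753-fold in saline replicate 3, with 40 of 43 below, and at 1.16-fold in saline replicate 1. CFA replicate 1 was also low, with 37 of 43 members below the mean of the other 5 libraries and a median of 0.888-fold. It was the lowest library for 5 of 43. Over all tested genes the medians of these 3 libraries were within 0.013 of 0 on the log2 scale.

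The spread also differed between groups. The standard deviation of log2 CPM was larger in saline than in CFA for 40 of 43 members, against 64.3% of all tested genes, with median values of 0.15 in CFA and 0.30 in saline. With saline replicate 3 left out, it was larger in saline for 22 of 43 members, against 46.4% of all tested genes. That count sets fewer saline libraries against 3 CFA libraries, and leaving out the lowest library of most members tends to narrow the saline spread. It was not made with another library left out, so what the excess rested on was not tested.

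Cytoplasm-rich transcripts (tubulins, calmodulins, translation factors and the like) showed a similar order of libraries. Their mean log2 CPM was 9.26, 9.28 and 9.44 in CFA and 9.53, 9.43 and 8.95 in saline libraries, with saline replicate 3 the lowest for 14 of 16 and saline replicate 1 the highest for 10 of 16. Nuclear long non-coding RNAs ran the other way, at 8.37, 8.47 and 8.30 in CFA and 7.95, 8.42 and 9.38 in saline libraries, with saline replicate 3 the highest for 7 of 7. Their summed levels were 22118 to 32123 CPM in CFA and 24892 to 45903 CPM in saline libraries. With the level of the nuclear RNAs as a covariate the median log2 fold change of the members was -0.045, with 13 positive. With that of the cytoplasm-rich transcripts, a covariate chosen after seeing the data, it was 0.014, and 0 members were called in either fit.

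**Figure D4:**
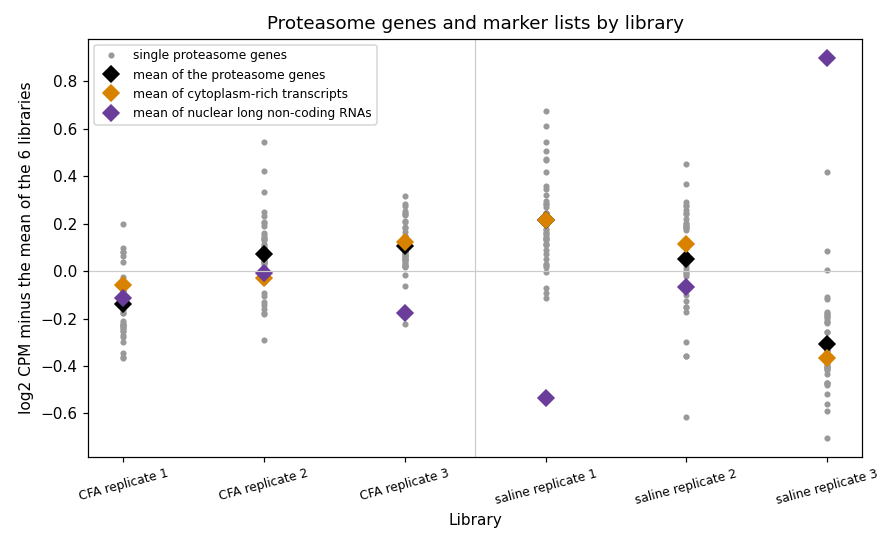
Log2 CPM minus the mean of the 6 libraries, for each of the 43 tested proteasome genes (grey), their mean (black), the mean of 16 cytoplasm-rich transcripts (orange) and the mean of 7 nuclear long non-coding RNAs (purple). In saline replicate 3 the proteasome and cytoplasm-rich means are lowest and the nuclear RNA mean is highest.

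Since saline replicate 3 was the lowest library for 34 of 43 members, leaving it out by itself lowers their log2 fold changes. Without it the direction over the members turned. Then 36 of 43 members had a negative log2 fold change, against 49.8% of all genes tested, and the median was -0.15, against 0.0015 over all genes. All 31 tested subunits of the core and cap were negative in that fit, with class medians of -0.26 for the alpha ring, -0.20 for the catalytic and -0.18 for the other beta subunits, -0.13 for the ATPases, -0.039 for the other base subunits and -0.17 for the lid. The activators stayed at 2 positive and 2 negative, and Psmf1 was at 0.13. Again 0 members were called and 0 had an unadjusted p under 0.05, where 0.0361% and 6.75% of all genes did. The smallest p was that of Psmd14, the lid deubiquitinase, at 152, 142 and 166 CPM in CFA and 192 and 195 CPM in the remaining saline libraries. Its log2 fold change in that fit was -0.33 ± 0.15 (SE, unadjusted p = 0.0505 in edgeR's quasi-likelihood test, adjusted p = 0.739). Lower in CFA without overlap were 8 members (Psma2, Psma5, Psmb2, Psmd7, Psmd12, Psmd13, Psmd14 and Psme3), where 10.8% of all genes were with 3 against 2 libraries. In both directions together it was 9 members, against 22.5% of all genes. Without saline replicate 1 the median was 0.12 instead, with 35 of 43 positive.

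Core and cap did not move by the same amount in every library. The mean log2 CPM of the 14 tested core subunits minus that of the 17 cap subunits was -0.58, -0.41 and -0.46 in CFA and -0.28, -0.56 and -0.52 in saline libraries. Saline replicate 1 had the highest share of core and CFA replicate 1 the lowest, and the groups overlapped. Between the 2 saline libraries with high levels, 13 of 14 core subunits were higher in saline replicate 1, with Psma4 the exception, while 11 of 17 cap subunits were higher in saline replicate 2. Psmb3, for example, was at 148 and 89.9 CPM in these libraries, and Psmd11 at 94.4 and 138 CPM.

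Core and cap genes also differ in length. Core subunits had a median exon length of 1016.5 bases and cap subunits of 1564 bases. Of all tested genes shorter than 1420 bases, 70.5% were higher in saline replicate 1 than in saline replicate 2, against 46.4% of longer genes. The same shorter genes were at a median of 0.853-fold in saline replicate 3 relative to the other libraries, against 1.04-fold for longer genes. The part of length in the difference between core and cap was not tested.

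**Figure D5:**
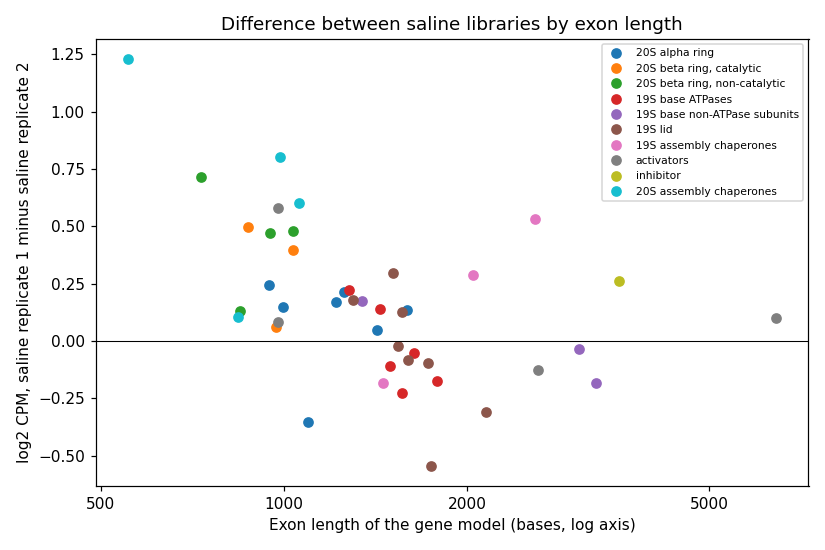
Log2 CPM of saline replicate 1 minus saline replicate 2 against exon length (log axis) for the 43 tested proteasome genes, coloured by class. Most genes shorter than 1420 bases lie above 0 (20 of 21), and longer ones lie on both sides (9 of 22 above).

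Genes that work with the proteasome are set beside the members as lists, with all libraries only. In each list 0 were called, as were 0% of all tested genes, so this count cannot liken the lists to the members. Apart from Nfe2l1, the genes named below are the 2 tested genes of each list with the smallest p. Among 5 further subunits and maturation factors 2 were positive and 3 negative, with a median log2 fold change of -0.0011. Pomp, a maturation factor of the core, was at 0.16 ± 0.21 (SE), and AI314180, the mouse gene of the scaffold protein ECPAS, at -0.22 ± 0.21. Among 12 ubiquitin receptors, ligases and deubiquitinases that bind the proteasome 6 were positive, with a median of -0.017. Ube3a, the ubiquitin ligase of Angelman syndrome, was at 200, 206 and 150 CPM in CFA and 222, 214 and 241 CPM in saline libraries. Its log2 fold change was -0.28 ± 0.18 with all CFA libraries lower, and Ube3c was at -0.27 ± 0.18. Of these 12 genes, 1 was lower (Ube3a) and 1 higher in CFA without overlap, against 3.97% and 3.55% of all tested genes.

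Regulators of proteasome gene transcription had a median of -0.016 over 9 tested genes, with 4 positive. Without overlap 2 of the 9 were lower in CFA and 0 higher, against 3.97% and 3.55% of all tested genes. Nfe2l1, chosen after its values were seen, was at 271, 248 and 306 CPM in CFA and 253, 304 and 264 CPM in saline libraries, and its log2 fold change was 0.0081 ± 0.17 (SE). Its relative Nfe2l3 was at 18.6, 18.6 and 19.6 CPM in CFA and 29.6, 24.5 and 30.3 CPM in saline libraries. The CFA libraries were all lower, with a log2 fold change of -0.57 ± 0.22 and an unadjusted p of 0.0222 by edgeR's quasi-likelihood test, which did not survive adjustment. Mafk, a small Maf partner of these factors, was at -0.63 ± 0.36.

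In the ubiquitin system itself, 7 of 16 genes of ubiquitin activation and conjugation were positive, with a median log2 fold change of -0.039. Uba6, an alternative ubiquitin-activating enzyme (chromosome 5, 86110730 to 86172743), was at 35.2, 28.1 and 32.6 CPM in CFA and 46.0, 47.7 and 60.0 CPM in saline libraries. All CFA libraries were lower, with a log2 fold change of -0.68 ± 0.21 (SE) and an unadjusted p of 0.00515 by edgeR's quasi-likelihood test, which also did not survive adjustment. Uba1, the main ubiquitin-activating enzyme, was at 0.18 ± 0.16, with all CFA libraries higher. Of the 16 genes, 1 was thus lower and 1 higher in CFA without overlap, against 3.97% and 3.55% of all tested genes. Of 10 genes of the p97 segregase, which extracts ubiquitinated proteins from complexes, 7 were positive, with a median of 0.048. Faf1 and Faf2 were at 0.18 ± 0.17 and 0.19 ± 0.18. All CFA libraries were higher for Faf1, the 1 gene of the 10 without overlap.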

How the data were processed

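Polyadenylated RNA of 10000 sorted nuclei per library was amplified with a Smart-seq V4 kit, and 300 ng of cDNA entered Nextera XT library preparation, per the labels' protocols. The authors deposited raw counts per gene with exon positions and lengths. The submitters' processing notes name featureCounts 2.0.1, HISAT2 2.2.1, SAMtools 1.13, Trim Galore and edgeR 3.32.1, with mm10 as build. No setting for strand or multi-mapping reads is given in the sources used here.

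Groups came from the sample titles. Counts were tested with edgeR 4.0.16 (R 4.3.3; quasi-likelihood, TMM, filterByExpr, treatment as the only term), with Benjamini-Hochberg adjustment over all genes tested and a threshold of 0.05. Standard errors and 95% intervals come from the F statistic. Log2 CPM used a prior count of 2. TPM were computed from counts and exon lengths. No library pair was a duplicate: the chi-square over its degrees of freedom was at least 17.0 for each. Same-numbered libraries did not deviate together across genes. With 3 libraries per group this cannot exclude a shared batch, and the labels name none. Alternatives included DESeq2 1.42.0 and limma-voom (limma 3.58.1). The fits were tested on simulated data.

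Members and lists were chosen with earlier results of these data known. Named by rule were, per class, the 2 tested members with the smallest p, the catalytic subunits, Psme1, Psme2, members without overlap, the highest and lowest TPM, and untested members. From each partner list the rule named the 2 tested genes with the smallest p. The floor of 3 counts covers counting error only, since amplified reads are not independent molecules. The result of 1 partner list is not reported here.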

Additional observations from a re-analysis of the deposited data

How the results depend on the processing

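Under all 16 alternatives 0 members were called, and the smallest adjusted p of a member was 0.739. Over all genes, 9 were called with no low-count filter, 5 by DESeq2, 11 by edgeR's likelihood ratio test, 6 with a replicate block and 1 with the level of nuclear long non-coding RNAs as a covariate, against 0 in the report. The covariate left 13 of 43 members positive. The count of members without overlap was 0 under RLE scaling and with DESeq2's size factors. Same-numbered libraries had correlations of deviations across genes of -0.079, 0.025 and -0.069. These cannot decide whether the numbers pair libraries, and the labels name no pairing.

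Leaving out each library in turn gave 0 to 5 genes called (5 without saline replicate 3). The median of the members ran from -0.15 (without saline replicate 3) to 0.12 (without saline replicate 1). Positive members numbered 7 to 35, and members without overlap 1 to 9. The 9 came without saline replicate 3, where 22.5% of all genes had no overlap, against 7.51% with all libraries. Log2 fold changes near 0 changed sign in 10 other cases, none a call. Psmb7 was at -0.0024 with RLE scaling and -0.0023 in DESeq2. Psmb6 was at 0.026 and Psmb3 at 0.0084 in limma-voom, and at 0.028 and 0.017 with the block. With the nuclear RNA covariate Psmb5 was at -0.056, Psmb7 at -0.065, Psmc2 at -0.0011 and Psmc5 at -0.032.

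Ranges with a change of sign, over the libraries left out, were -0.26 to 0.045 for Psma4, -0.33 to 0.0032 for Psma5, -0.32 to 0.13 for Psmb1, -0.21 to 0.29 for Psmb3, -0.20 to 0.31 for Psmb5, -0.27 to 0.24 for Psmb6, -0.18 to 0.13 for Psmb7, -0.087 to 0.17 for Psmc2, -0.15 to 0.21 for Psmc5, -0.21 to 0.035 for Psmc6, -0.21 to 0.047 for Psmd1, -0.0051 to 0.22 for Psmd10, -0.29 to 0.022 for Psmd11, -0.020 to 0.21 for Psmd2, -0.094 to 0.15 for Psmd9, -0.030 to 0.23 for Psmg3 and -0.083 to 0.64 for Psmg4. Psmd12, Psme1, Psme2, Psme4 and Psmf1 kept their sign under these 6 fits. The causes were not tested beyond the library named. The level of cytoplasm-rich transcripts as a covariate was added after seeing the data and changed no count.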
